A study of Mus musculus with 16 samples.

Results

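Genes of hepatic insulin signalling, 10 in number, were followed in PGC-1α eCLIP data from mouse liver cells: Insr, Irs2, Grb10, Pik3ca, Pik3r1, Pdpk1, Akt1, Rheb, Foxo1 and Foxo3. A binding region was given to one of these 10 genes when its midpoint lay inside the gene on the same strand (build mm10, GENCODE M21 gene bounds). The 10 genes held 4824 of the 1331383 regions ("clusters") deposited for the 8 immunoprecipitation (IP) libraries, and 13398 genes of the annotation had at least 1 cluster. They also held 68 of the 8478 rows of the 4 deposited lists of reproducible peaks.

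The cells were primary hepatocytes of C57BL/6J mice, crosslinked with 400 mJ/cm2 of ultraviolet light at 254 nm, and PGC-1α was precipitated with the RNA bound to it (single-end eCLIP, also called seCLIP). Cells of the glucagon libraries spent a night in starvation medium before 3 h with 200 nM of the hormone, and those of the control libraries are labelled untreated. Starvation is thus described for the glucagon libraries only, so it cannot be told apart from the hormone in any comparison of treatments below. Each treatment had a lower and an upper gel band with 2 IP libraries each, so that 4 glucagon libraries stood against 4 control libraries. Nothing in the labels ties a replicate to its own culture or animal, so every p-value reflects the spread among these libraries alone, and that spread may be technical.

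Insulin binds its receptor (Insr) and signals through adaptor proteins such as Irs2 to the lipid kinase PI3K, whose product recruits the kinases PDK1 (Pdpk1) and AKT to the membrane. AKT phosphorylates the FoxO transcription factors and keeps them out of the nucleus, and it activates the mTOR branch through the GTPase Rheb. In liver, fasting and glucagon act against insulin, and PGC-1α is known there as a coactivator of FoxO1 at the genes of glucose production; the protein also has an RNA recognition motif.

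Most enriched peaks of the 10 genes lay in introns, whose sequence was not used here, so only sites in annotated transcripts can be shown as bases. The following 4 stretches are reproducible sites, or parts of them, that fall in an annotated exon. They are shown because their values are described below, on the transcribed strand, 5′ to 3′, from GENCODE M21 transcripts of build mm10. Capitals mark runs of 4 or more G in the first pair of sequences and the start codon in the Pdpk1 sequence, and the Grb10 sequence has no capitals.
Akt1 site 7, exon 1 of the noncoding transcript Akt1-207, chr12:112668043-112668105, minus strand: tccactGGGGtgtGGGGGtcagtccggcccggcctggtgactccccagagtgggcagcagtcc
Rheb site 1, retained-intron transcript Rheb-204, chr5:24841984-24842074, minus strand: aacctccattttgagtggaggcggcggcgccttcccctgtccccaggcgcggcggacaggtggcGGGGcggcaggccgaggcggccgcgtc
Pdpk1 site 1, its coding part from the start codon to the end of exon 1 of Pdpk1-202, chr17:24141437-24141460, minus strand: ATGgccaggaccaccagccagctg
Grb10 site 2, 30 nt of the 5′ UTR in exon 1 of Grb10-209, shared by the enriched peaks of 3 libraries, chr11:12026069-12026098, minus strand: tgtcagcgcatgttgccgcatgtcggtgcg

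The Akt1 stretch was 71.4% and the Rheb stretch 75.8% G and C. At reproducible rows that lie in exons the median was 55.6% over windows of 63 nt and 53.8% over windows of 91 nt. It was 63.5% and 61.5% without the windows of the long noncoding RNA Neat1. On the transcribed strand 4 motifs were searched, the splice-site motif GTAAG, the U run TTTTT, the G run GGGG and the GU repeat TGTGT, and only GGGG occurred in these 4 stretches. GGGG was present in 38.6% of 1594 windows of 63 nt at reproducible rows that lie in exons, and in 47.8% of 1520 windows of 91 nt. Without the windows of the long noncoding RNA Neat1 these shares were 49.0% and 59.9%, so a G run was common in such windows. Among clusters with a midpoint inside the gene, no enriched peak overlapped its 300-nt RefSeq promoter windows (GRCm38.p6), found for 9 of the 10 genes. The windows of Pik3ca and Irs2 lie wholly outside the gene and some others in part. Clusters outside the gene were not counted, so for these windows the absence says little or nothing.

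An enriched peak is here a cluster with a deposited −log10 p of at least 3 and a deposited log2 fold over input of at least 3. Clusters per IP library numbered 26279 to 207718 in glucagon and 132622 to 260814 in control libraries, and enriched peaks 979 to 7603 and 4110 to 6523. The library of the glucagon lower band, replicate 1, was the smallest on both counts. Cluster numbers were the sole measure of depth, since read counts were not used here. All 8 hepatocyte markers had clusters, 245 to 545 in sum per glucagon library and 228 to 299 per control library. Of the 6 Kupffer cell, 6 endothelial, 6 stellate, 6 cholangiocyte and 5 erythroid markers, 1, 1, 1, 2 and 0 had any cluster, with 12 clusters of cholangiocyte markers in 1 control library as the highest sum.

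The 10 genes differed widely in how much of their RNA was marked as enriched. All 10 had an enriched peak in at least 1 library, against 23.2% of the 13398 genes with a cluster. A row in a reproducible list was found for 8 of the 10, against 9.4% of those genes and 19.1% of the 6354 genes with a mean of at least 5 clusters per library. Each of the 10 genes belongs to the second, deeper group, and the genes were chosen with results of these data known, so these shares describe the choice as well as the RNA. Akt1 held 26 rows, Foxo3 23, Foxo1 7, Pdpk1 5, Pik3ca, Pik3r1 and Grb10 2 each, and Rheb 1, while Insr and Irs2 had none. By list, 1 of the 10 genes had a row for the glucagon lower band, 6 for the glucagon upper band, 5 for the control lower band and 5 for the control upper band, beside 0.866%, 5.39%, 4.89% and 7.34% of all genes with a cluster.

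**Figure D1:**
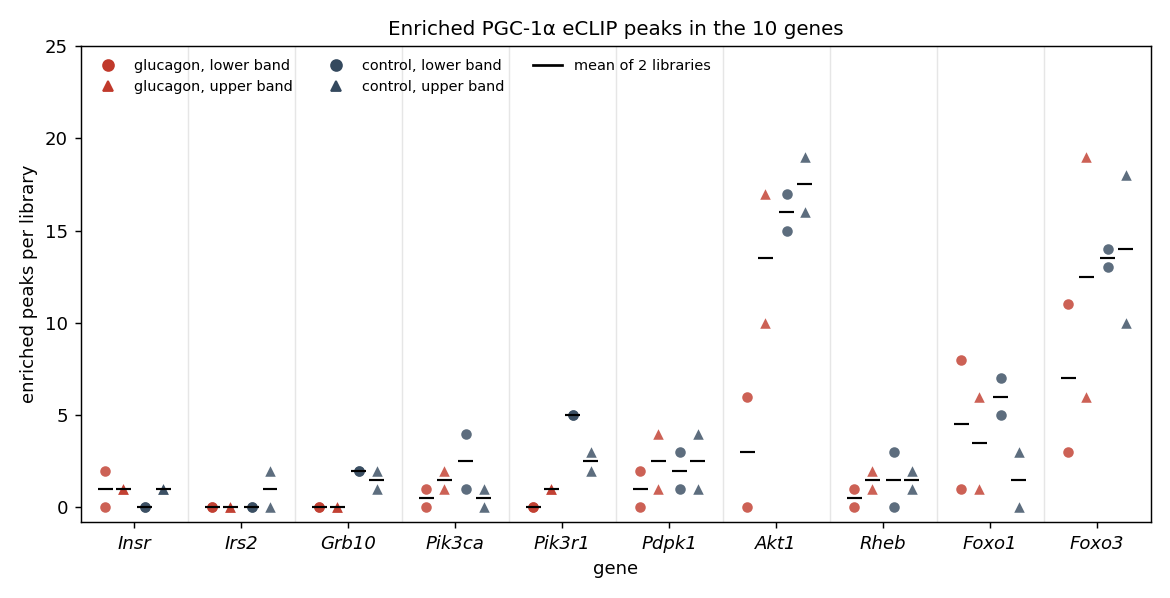
Enriched peaks per library (y axis) in each of the 10 genes (x axis, ordered along the pathway), with glucagon libraries left of control libraries, circles for the lower band, triangles for the upper band and a bar for the mean of 2 libraries. Akt1 and Foxo3 held the most, up to 19 per library, and Grb10 had 0 in all 4 glucagon libraries.

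Neither the receptor nor its adaptor Irs2 had a row in a reproducible list. Insr, the insulin receptor, had 32, 117, 108 and 150 clusters in the glucagon libraries and 85, 102, 152 and 141 in the control libraries. Values of a treatment are given throughout with both replicates of the lower band first and both of the upper band after them. Of these 887 clusters 6 were enriched (0.676%), 2, 0, 1 and 1 under glucagon and 0, 0, 1 and 1 in control. The median share over the 3628 genes with at least 100 clusters was 0.581%, so Insr stood near the middle of all genes by this measure, at rank 1711. All 6 of its enriched peaks were intronic, and 3 of them, from 3 libraries, lay between 33272 and 33821 nt from the start of its transcript.

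Irs2, the main insulin receptor substrate of liver beside Irs1, had 19, 40, 26 and 43 clusters in glucagon libraries and 17, 6, 14 and 18 in control libraries. As a share of the library this was 72.3, 21.3, 26.6 and 20.7 clusters per 100000 under glucagon, against 12.8, 3.36, 5.83 and 6.90 in control. Every glucagon library lay above every control library. The cluster share was 2.20 higher on the log2 scale (SE 0.52, limma, adjusted p = 0.0665 over 6354 genes), which misses the 0.05 threshold. With the replicate number as a block the difference passed (limma, adjusted p = 0.0128), but more genes of the whole set passed with that block too. The labels do not pair replicates between groups, so the block is an assumption. Irs2 passed in 6 of 16 settings in all. Of the 183 Irs2 clusters 2 were enriched (1.09%, rank 1338 of the 3628 genes). Both came from the control upper band, replicate 1, and the files give both the same fold (log2 4.08) and p although they lie in different places of its intron. Clusters are counted in the IP without weighing by input, so more RNA of a gene and more RNA bound cannot be told apart in a cluster share, and the same holds for every cluster share below.

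Grb10, an adaptor that binds the insulin receptor and inhibits its signal, had the opposite pattern. Its clusters numbered 4, 15, 7 and 18 in glucagon libraries and 29, 37, 52 and 60 in control libraries, or 15.2, 7.98, 7.17 and 8.67 per 100000 under glucagon against 21.9, 20.8, 21.7 and 23.0 in control. The groups did not overlap, and the share was 1.15 lower on the log2 scale (−1.15, SE 0.33, limma, adjusted p = 0.128), which did not pass. With 1 library left out this difference ran from −1.42 to −0.89. Among the 10 genes Irs2 alone lay above control in every glucagon library and Grb10 alone below it, where 4.74% and 8.77% of the 6354 genes did so. Grb10 had 0 enriched peaks in each of the 4 glucagon libraries and 2, 2, 2 and 1 in the control libraries. Of these 7 peaks 6 lay 10822 to 11330 nt from the start of the transcript Grb10-201, around the first exon of the alternative transcript Grb10-209 from which the sequence above was taken. The list fold at that site was log2 3.85 (site 2), with log2 folds of 4.63, 3.42 and 3.72 in control lower band replicates 1 and 2 and control upper band replicate 1, and no cluster in the other 5 libraries.

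The PI3K subunits differed in where their enriched peaks lay. Pik3ca encodes the catalytic subunit and had 2, 46, 21 and 46 clusters in glucagon and 26, 48, 44 and 48 in control libraries. Enriched peaks numbered 0, 1, 2 and 1 under glucagon and 1, 4, 0 and 1 in control. All 10 lay within 56 to 511 nt of the 5′ end of the annotated gene, 3 of them in the 5′ UTR and 7 in the intron that follows, while no other stretch of the 70816-nt gene held one. Pik3ca site 1 (chr3:32397861-32398003, plus strand) had a cluster in all 8 libraries and was enriched in 2 of them, both control lower band, at log2 folds of 3.82 and 3.61. Pik3ca site 2 (chr3:32398029-32398097) was enriched in 3 libraries, all of them glucagon, at log2 4.43, 3.03 and 3.02. The control folds there were 1.78 in lower band replicate 2 and 2.61 and 2.90 in the upper band, under the minimum of 3, and lower band replicate 1 of both treatments had no cluster.

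Pik3r1, the regulatory subunit that links PI3K to the adaptors, had 12, 93, 75 and 85 clusters in glucagon and 87, 99, 119 and 138 in control libraries, and its cluster share differed by −0.09 on the log2 scale (SE 0.27, adjusted p = 0.860). Its enriched peaks numbered 0, 0, 1 and 1 in glucagon libraries and 5, 5, 3 and 2 in control libraries. All 17 were intronic and spread over 17527 to 74121 nt from the gene's 5′ end, with 2 sites (chr13:101699726-101699907, minus strand), both in the control upper band list. Site 1 had the higher list fold (log2 3.64) and was enriched in 3 libraries, at log2 3.89 in glucagon upper band replicate 2 and 4.52 and 3.86 in control lower band replicate 1 and upper band replicate 2.

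Pdpk1 and Akt1, the kinases that follow PI3K, differed in layout. Pdpk1 encodes PDK1, the kinase that activates AKT, and had 3, 50, 29 and 67 clusters under glucagon and 24, 39, 59 and 71 in control. Its enriched peaks numbered 0, 2, 1 and 4 in glucagon and 3, 1, 4 and 1 in control libraries. Of the 16, 12 lay within the first 1000 nt of the intron that follows the exon with the start codon. That zone had 33 clusters, of which 36.4% were enriched, against 3 of 168 in the rest of the intron and 1 of 141 elsewhere in the gene. The 1 peak elsewhere is Pdpk1 site 1, which spans the start codon and the exon end shown above (log2 3.97 in control upper band replicate 2). Pdpk1 site 2, 142 nt into the intron (chr17:24141249-24141342), had a cluster in all 8 libraries, with log2 folds of 4.05, 4.43, 2.54 and 4.25 under glucagon and 4.4, 2.61, 4.82 and 3.00 in control; the fold of 4.05 did not reach the p minimum, and 4 libraries counted as enriched. Site 3 (chr17:24141022-24141180) was also enriched in 4, at log2 3.95 and 3.55 in glucagon and 3.42 and 4.3 in control libraries.

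Akt1, which encodes an AKT kinase, stood out by the share of its clusters that were enriched. It had 9, 24, 24 and 29 clusters in glucagon libraries and 19, 24, 33 and 31 in control libraries, and enriched peaks numbered 0, 6, 10 and 17 under glucagon and 15, 17, 19 and 16 in control. The enriched share was thus 0%, 25%, 41.7% and 58.6% of clusters under glucagon and 78.9%, 70.8%, 57.6% and 51.6% in control. The first value rests on 9 clusters, with an exact 95% interval from 0 to 33.6% that covers counting error only. Over all libraries 100 of 193 clusters were enriched (51.8%), rank 8 of the 3628 genes with at least 100 clusters. Foxo3 followed among the 10 genes at 11.2% (rank 191), and the other 8 lay between 0.676% and 4.68%.

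The Akt1 peaks filled the intron after the start-codon exon, intron 2 of Akt1-201, which makes up 43.7% of the gene. It held 98 of the 100 enriched peaks and all 26 rows, which form 18 sites over 8044 nt (chr12:112663144-112671187, minus strand). They were not gathered at its 5′ splice site: 7 of 16 clusters in its first 1000 nt and 91 of 145 in the rest of the intron were enriched, against 2 of 32 elsewhere in the gene. Akt1 site 10 (chr12:112666395-112666492) was enriched in 7 libraries, at log2 folds of 4.16, 3.73 and 3.89 in glucagon and 3.63, 3.11, 3.65 and 4.48 in control libraries. The exception was glucagon lower band replicate 1, which had no cluster there. Akt1 site 7, the stretch shown above, was enriched in 2 libraries, glucagon lower band replicate 2 at log2 3.93 and control upper band replicate 2 at log2 3.43. Site 13 (chr12:112665537-112665579) had the highest list fold of all 53 sites, log2 5.15, and was enriched in both control lower band libraries at log2 5.21 and 4.78, with no cluster in any glucagon library.

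**Figure D2:**
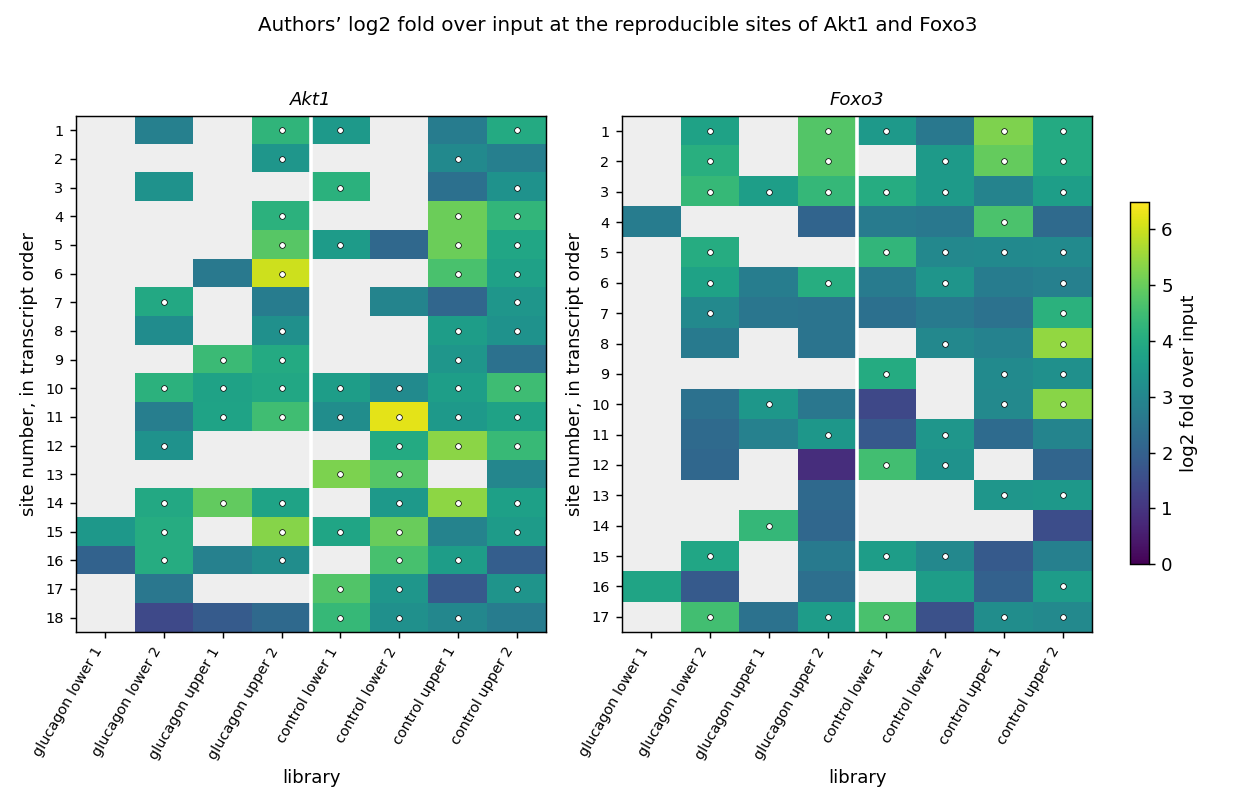
Authors' log2 fold over input (colour, log2) at the 18 reproducible sites of Akt1 and the 17 of Foxo3 (rows, in transcript order) in the 8 libraries (columns, glucagon left of the white line and control right of it). Grey means no cluster in that library and a white dot an enriched peak; Akt1 site 10 has a dot in 7 libraries, and the column of glucagon lower band replicate 1 has none.

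Rheb, the GTPase that switches on mTORC1, had 9, 35, 14 and 47 clusters in glucagon and 33, 36, 43 and 42 in control libraries, and 0, 1, 1 and 2 against 3, 0, 2 and 1 enriched peaks. All 10 enriched peaks lay in intron 1 of the main coding transcript Rheb-201, after the start codon, and 7 of them in its first 1000 nt. When exons of any transcript take precedence, 9 of the 10 lay in a noncoding exon. The single site, whose 91 nt are printed above, lay 156 nt into the intron. It had a cluster in all 8 libraries, with log2 folds of 3.47, 4.09, 2.86 and 3.89 under glucagon and 4.28, 2.13, 2.49 and 2.38 in control, and 3 libraries were enriched. Of the 10 Rheb peaks 5 share fold and p with another peak of the same library and gene, as 17 Foxo3, 14 Akt1, 4 Foxo1, 2 Pik3r1 and both Irs2 peaks do.

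Foxo1, the FoxO factor that PGC-1α coactivates in liver, had 66, 141, 122 and 152 clusters in glucagon libraries and 102, 94, 111 and 124 in control libraries. Scaled to the library this was 251, 75, 125 and 73.2 per 100000 under glucagon and 76.9, 52.7, 46.2 and 47.5 in control, so that 1 control library lay within the glucagon range. The share was 1.07 higher on the log2 scale (SE 0.39, limma, adjusted p = 0.260) and did not pass. With 1 library left out this difference ran from 0.63 to 1.51. Enriched peaks numbered 1, 8, 1 and 6 in glucagon and 5, 7, 0 and 3 in control libraries. Glucagon upper band replicate 1 thus had 122 clusters and 1 enriched peak, and control upper band replicate 1 had 111 clusters and 0.

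All 31 enriched peaks and all 7 rows of Foxo1 lay in intron 1, which follows the start codon and makes up 89.1% of the gene. Its first 1000 nt held 54 clusters with 18 enriched (33.3%), against 13 of 845 in the rest of the intron (1.54%). The 7 sites lay side by side over 902 nt (chr3:52269456-52270357, plus strand), from 71 to 897 nt after the 5′ splice site. Foxo1 site 4, 309 nt into the intron, was enriched in 4 libraries at log2 3.16 and 3.31 in glucagon and 3.46 and 3.52 in control libraries, and the remaining libraries had log2 folds of 1.77 and 2.53 in glucagon and 2.41 and 2.13 in control there. Site 6 was also enriched in 4 libraries, at log2 3.39 and 3.16 in glucagon and 3.76 and 3.39 in control libraries. Site 7 had the highest list fold, log2 3.79, with 4.34 in control lower band replicate 1.

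Foxo3 encodes a second FoxO factor of liver. It had 34, 125, 91 and 118 clusters in glucagon and 93, 95, 131 and 150 in control libraries, and 3, 11, 6 and 19 enriched peaks against 14, 13, 10 and 18. The groups overlapped. Of the 94 enriched peaks 93 lay in intron 2 after the start-codon exon, and 29 of the 44 clusters in its first 1000 nt were enriched (65.9%), against 64 of 754 in the rest (8.49%). Its 17 sites ran from 238 to 69530 nt into that intron, and 6 lay in the first 1000 nt. Foxo3 site 3 (chr10:42274177-42274473, minus strand) was enriched in 6 libraries, with log2 folds of 4.37, 3.65 and 4.33 in glucagon and 4.03, 3.54 and 3.65 in control; control upper band replicate 1 had 2.90 and glucagon lower band replicate 1 no cluster. Site 2 (chr10:42274487-42274545) had the highest list fold of the gene, log2 5.0, and was enriched in 5 libraries.

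**Figure D3:**
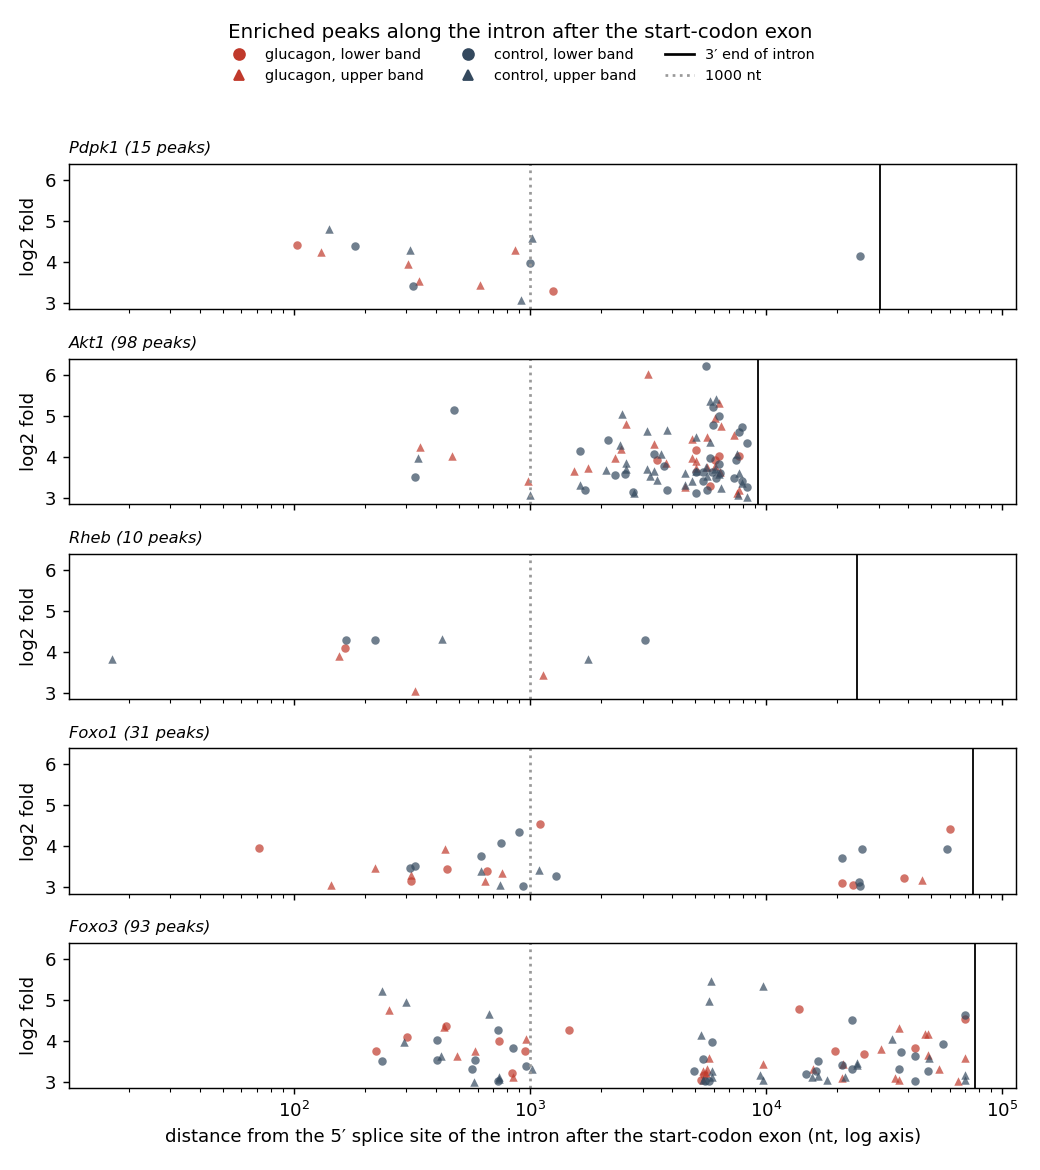
Distance of each enriched peak from the 5′ splice site of the intron after the start-codon exon (x axis, nt, log axis) against the authors' log2 fold over input (y axis) in Pdpk1, Akt1, Rheb, Foxo1 and Foxo3, with glucagon in red, control in dark blue, circles for the lower and triangles for the upper band. In Foxo1 18 of 31 peaks lie left of the dotted line at 1000 nt, and in Akt1 91 of 98 lie right of it.

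Taking the 10 genes as one list, 262 of the 293 enriched peaks (89.4%) and 61 of the 68 rows lay in the intron after the start-codon exon, where 62.3% of all their clusters lay. Akt1 held 98 and Foxo3 93 of these 262 peaks. Over all protein-coding genes this intron held 42.1% of enriched peaks and 23.9% of clusters. The length of this intron differs between genes, from 0.79% of the gene in Pik3ca to 89.1% in Foxo1, and its part in these shares was not tested. The share was 91.7% of 109 enriched peaks under glucagon and 88.0% of 184 in control. In the first 1000 nt of that intron 33.3% of 225 clusters were enriched, against 6.72% of 2781 in its remainder and 1.71% of 1818 elsewhere. Over all genes these shares were 11.3%, 3.38% and 1.94%. Of the 75 enriched peaks in the first 1000 nt, Foxo3 held 29, Foxo1 18, Pdpk1 12, Akt1 and Rheb 7 each, and Insr and Irs2 1 each. Irs2 (1 of 24 clusters) and Pik3r1 (0 of 22) lay under the 11.3% of all genes, and the other genes with clusters in this zone above it. Pik3ca and Grb10 had no cluster in it. Of the 187 enriched peaks in the remainder, Akt1 held 91 and Foxo3 64. In the other genes with clusters there the enriched share was 0 to 2.34%, under the 3.38% of all genes. By annotation, 0 of 239 clusters in 3′ UTRs, 1 of 285 in coding sequence, 10 of 113 in 5′ UTRs and 11 of 103 in noncoding exons were enriched, and 207 of 3635 in introns more than 500 nt from an exon. Rheb held 9 of the 11 peaks in noncoding exons, which also count in the intron of its main coding transcript. The 10 peaks in 5′ UTRs came from Grb10 (4), Pdpk1 (3) and Pik3ca (3). No share over all genes was counted for these classes, nor for the intronic share that follows. In all, 271 of the 293 enriched peaks were intronic (92.5%, exact 95% interval 88.9 to 95.2%). This interval treats the peaks as independent and is therefore too narrow. The same sites recur across libraries, and Akt1 held 100 and Foxo3 94 of the 293 peaks.

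Whether the number of enriched peaks differed between glucagon and control libraries was asked gene by gene. An exact 2-sided permutation test was used, in which treatment labels were exchanged within bands. With 36 assignments the smallest p that this exact permutation test can give is 0.0556, so no gene could reach 0.05. Pik3r1 averaged 0.50 enriched peaks per glucagon library and 3.75 per control library (difference −3.25, exact p = 0.0556), and Grb10 0 and 1.75 (−1.75, exact p = 0.0556). In both genes every glucagon library lay below every control library, as in 2.22% of the 3110 genes with an enriched peak. The reverse held for 0.257% of those genes and none of the 10. Such a downward separation needs an enriched peak in every control library, while 1 in any library placed a gene among the 3110. No share was counted over genes with as many enriched peaks, so the 2.22% is not a matched background. Scaled per 10000 clusters, the groups stayed apart in Grb10 and overlapped in Pik3r1, where glucagon upper band replicate 1 had 0.102 and control upper band replicate 2 had 0.0767. How many of all genes stayed apart on that scale was not counted. Akt1 averaged 8.25 against 16.75 (−8.50, exact p = 0.111) and Foxo3 9.75 against 13.75 (−4.00, exact p = 0.278), and the other 6 genes differed by at most 0.50. The Foxo3 difference ran from −7.25 to −0.75 with 1 library left out and was positive at a log2 fold minimum of 4 (0.25) and per 10000 clusters of the library (0.0911). With adjustment over the 3110 genes every p was 1.00, and 138 genes (4.44%) stood at the smallest p. Together the 10 genes held 6, 29, 23 and 51 enriched peaks in glucagon libraries and 48, 49, 43 and 44 in control libraries, which is a difference of −18.75 per library. The highest of all 8 values, 51, came from a glucagon library and the 3 lowest from the other glucagon libraries. The number of clusters differed too, 190, 686, 517 and 755 in glucagon and 515, 580, 758 and 823 in control libraries. Within each treatment and band the library with more clusters also had more enriched peaks. Between the bands of the control this order did not hold. The lower band libraries with 515 and 580 clusters had 48 and 49 enriched peaks, and the upper band libraries with 758 and 823 had 43 and 44. The part of cluster number in the difference was not tested.

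Of the 53 sites, 10 were listed in glucagon lists only, 36 in control lists only and 7 in lists of both treatments. The lists differ in length, 413 and 2167 rows for glucagon and 2206 and 3692 for control, so these counts show no change at a site. A cluster in all 8 libraries was found at 7 sites, and 4 were enriched in 6 or more.

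**Figure D4:**
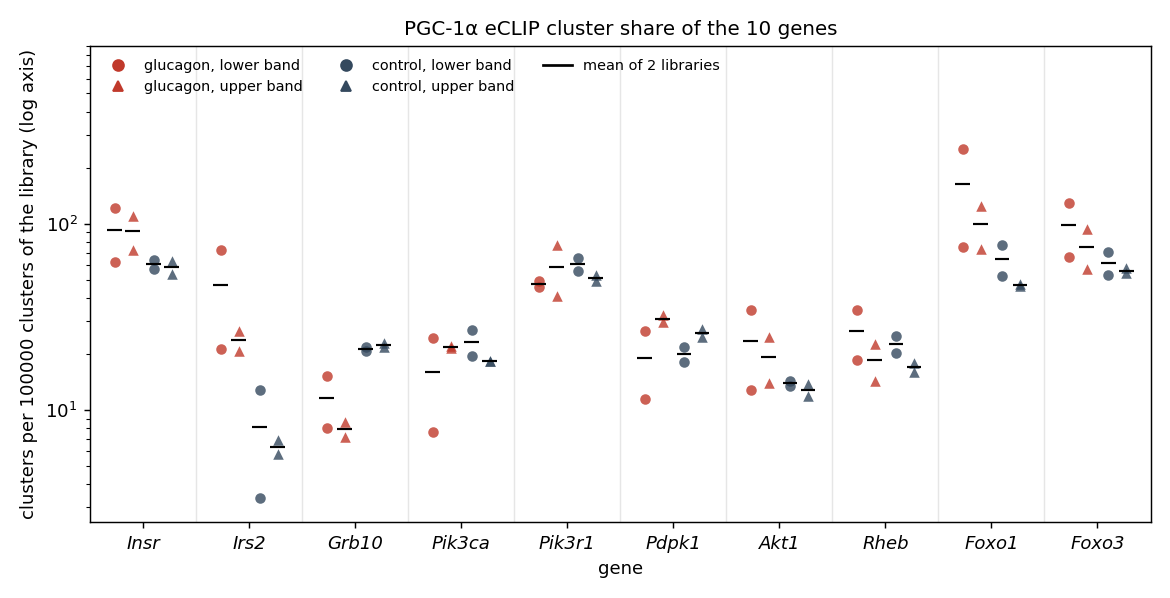
Clusters of each gene per 100000 clusters of the library (y axis, log axis) for the 10 genes (x axis), glucagon left of control, circles for the lower and triangles for the upper band, bars for the mean of 2 libraries. All 4 glucagon libraries lie above all control libraries in Irs2 (20.7 to 72.3 against 3.36 to 12.8) and below them in Grb10.

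Cluster share was compared across the 6354 genes in 1 limma fit on log2 values. None of the 10 genes passed an adjusted p of 0.05 for glucagon against control, where 85 genes passed upward (1.34%) and 98 downward (1.54%), and 902 genes had an unadjusted p under 0.05. Akt1 differed by +0.58 (SE 0.39, adjusted p = 0.485), Insr by +0.57 (0.29, 0.399), Foxo3 by +0.49 (0.30, 0.457), Rheb by +0.15 (0.32, 0.812), Pdpk1 by +0.08 (0.31, 0.888) and Pik3ca by −0.17 (0.36, 0.801). The 10 genes had a median difference of +0.32 and all genes one of −0.11, and Pik3r1 turned to a positive difference (0.0706) when libraries were centred on that median. Without glucagon lower band replicate 2, when 2575 genes passed, Akt1 (adjusted p = 0.0173), Insr (0.0110) and Foxo3 (0.0237) were among them. These p-values do not show that the genes were alike in both treatments: the 95% interval of Akt1 ran from −0.32 to 1.47 and that of Pik3ca from −0.98 to 0.64.

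**Figure D5:**
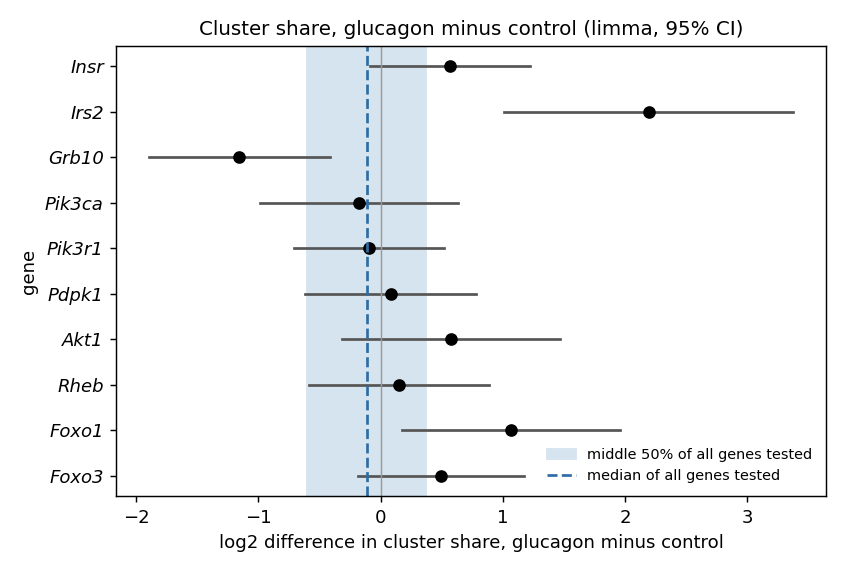
Log2 difference in cluster share, glucagon minus control (x axis), with 95% confidence intervals from limma for the 10 genes (y axis, in pathway order); the blue band is the middle 50% of all 6354 genes and the dashed line their median. Irs2 lies at +2.20 and Grb10 at −1.15, and the intervals of Irs2, Foxo1 and Grb10 do not reach 0 before adjustment over genes.

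The upper and lower bands were compared in the same way. Akt1 averaged 15.5 enriched peaks per upper band library and 9.5 per lower band library (difference +6.00, exact p = 0.111), where 2.99% of the 3110 genes stood at the smallest p. In unscaled numbers none of the 10 genes had all upper band libraries above or all below the lower band libraries, which 1.03% and 0% of the 3110 genes had. Per 10000 clusters Foxo1 lay lower in every upper band library, with 0.102, 0.289, 0 and 0.115 in upper band and 0.381, 0.426, 0.377 and 0.393 in lower band libraries (glucagon replicates 1 and 2, then control replicates 1 and 2). The share of all genes that were separated on this scale was not counted, so Foxo1 cannot be set against it. In cluster share no gene of the 6354 passed between bands (limma, adjusted p under 0.05 in 0 genes, unadjusted in 154). Nor did any gene pass when the difference of glucagon from control was compared between bands (0 genes adjusted, 52 unadjusted).

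The rest of the pathway was described from a list of 69 further genes, from receptors to FoxO targets. Clusters were present in 62 of them, an enriched peak in 28 and a reproducible row in 9. Over all genes with a cluster the background was 23.2% with an enriched peak and 9.4% with a row, or 19.1% with a row among the 6354 deeper genes. The 9 were Srebf1 (10 rows), the lipogenic factor induced by insulin, Eif4ebp1 (7), the translation repressor phosphorylated by mTORC1, the lipid phosphatase Inppl1 (6), the adaptor Crk (5), the S6 kinase Rps6kb1 (5), the phosphatases Ptpn2 (2) and Ptprf (1), the adaptor Gab1 (1) and the atypical protein kinase C gene Prkci (1). None of these reached the 26 rows of Akt1 or the 23 of Foxo3. Of the 48 list genes deep enough for limma, 6 passed with a higher cluster share under glucagon and 0 with a lower one, beside 1.34% upward and 1.54% downward of all 6354. The median difference was −0.22 over the 48 and −0.11 over all genes.

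The 6 were 3 of the 8 tested targets of FoxO1 and insulin and 3 signalling genes. The other 5 targets did not pass, among them Igfbp1 (+1.16, adjusted p = 0.350), Sesn3 (−1.60, 0.304) and Cited2 (−0.39, 0.655), examples chosen after their values were seen. The glucose-production genes G6pc and Pck1 were higher by 4.50 and 3.94 (log2, adjusted p = 0.00541 and 0.00551), and Ppargc1a, the gene of PGC-1α itself, by 4.92 (adjusted p = 0.0177). G6pc had 17, 29, 21 and 40 clusters under glucagon and 1, 2, 1 and 4 in control, with no enriched peak. Irs1, the adaptor most like Irs2, had 2, 55, 23 and 77 against 0, 3, 2 and 6 clusters (+4.25, adjusted p = 0.0123). Sgk1, a kinase related to AKT, was higher by 2.02 (adjusted p = 0.0399) and Grb14, the relative of Grb10 that inhibits the insulin receptor in liver, by 1.47 (adjusted p = 0.02). G6pc passed limma in all 15 settings that tested it (adjusted p from 0.000146 to 0.0433) and Pck1 in 14 of 15 (0.00065 to 0.0606). Irs1 passed in 13 of 16 and lost its call without glucagon upper band replicate 1 (0.0539), without control upper band replicate 1 (0.0596) and at a mean of at least 20 clusters (0.0685). Grb14 passed in 11 of 16, Ppargc1a in 10 of 15 and Sgk1 in 8 of 15. All 3 lost their call without glucagon upper band replicate 1 (0.110, 0.0698 and 0.182) and without any 1 of the 4 control libraries, at 0.0972 to 0.147, 0.0724 to 0.0877 and 0.143 to 0.226. Sgk1 also lost its call with median centring (0.0675) and without glucagon upper band replicate 2 (0.0792).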

How the data were processed

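Processed files of 8 IP libraries and 4 lists of reproducible peaks were used; the 8 inputs were not analysed here. The submitters' processing notes name cutadapt and STAR with the build mm10, and no version. Which peak caller was used, and how the lists were made, is not given in the sources used here. Per region the deposited files hold a −log10 p-value (highest value 400) and a log2 fold over input, both recognised from the values since there is no header. They are the authors' own and were used only to describe and filter.

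The 10 genes and all gene lists were chosen with earlier results of these data known. Clusters were placed by midpoint and strand in GENCODE M21, and exons of any transcript of the gene took precedence over introns. The intron after the start-codon exon was taken from 1 main coding transcript per gene. A site is a run of overlapping list rows. All 10 genes were named; for those with a site, the one with the highest fold and the one enriched in most libraries were described, and other pathway genes were named where they had a row or passed limma. Cluster share is log2 of clusters plus 0.5, scaled to the library's clusters, for genes with a mean of at least 5, fitted with limma 3.58.1 (R 4.3.3) on 4 group means, Benjamini-Hochberg adjusted. Enriched peaks were tested with exact permutations within bands in Python 3.11.15. Tested on simulated data, limma found 54% of 50 genes lowered by log2 2, 22% of those lowered by 1, and 46% and 96% of those raised by 1 and 2, among 6354. The spread between simulated libraries was set in advance and not taken from these libraries, so these shares may not hold for them. Replicate numbers were checked for pairing: the difference of replicate 1 from replicate 2 correlated over genes at 0.143 to 0.473 between groups, over 0.1 throughout, but with 2 numbers per group and fewer clusters in replicate 1 of every group. Depth is unknown beyond cluster numbers. Same-strand genes inside these loci (Gm38034 in Foxo1 with 45 clusters, Gm36638 in Pik3r1 with 32) held 0 and 1 enriched peaks. Other thresholds, filters, scalings, a replicate block, library weights and leaving out each library were tried.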

Additional observations from a re-analysis of the deposited data

How the results depend on the processing

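The 8 genes with a reproducible row were also 8 with any overlap of 1 base, and 6 when a row had to be enriched in both libraries. With introns given precedence over exons 99.0% of enriched peaks were intronic. The number of genes with non-overlapping treatments was 2 as reported. It was 1 at a log2 fold minimum of 4, 0 at a −log10 p minimum of 5 and 1 at a minimum of 1.3. Per 10000 clusters it was 1 (Grb10), and with 1 library left out 2 to 3. Between bands it became 1 per 10000 clusters (Foxo1, lower in the upper band). No share of all genes was counted on the scale per 10000 clusters. The total difference of −18.75 was −4.50 at the fold minimum of 4, −0.30 per 10000 clusters, −25.75 to −11.75 with 1 library left out and −10.25 without Akt1, an alternative chosen after seeing the data. Signs turned for Irs2 at a fold minimum of 2 (2.5), for Foxo3 (0.25) and Pik3ca (0.25) at a minimum of 4, for Pdpk1 (0.50) and Rheb (0.25) at a −log10 p of 5, for Foxo1 (−2), Rheb (1.75) and Insr (−1.50) at 1.3, and for Foxo3 per 10000 clusters (0.0911). With 1 library left out the enriched-peak differences of Foxo1 ran from −1.50 to 2.00, and those of Pdpk1, Rheb and Pik3ca each from −1.25 to 0.25. In cluster share, the count of 183 genes was 280 without the filter, 76 at a mean of 20, 337 with the replicate block, 109 in the upper band libraries alone (chosen after seeing the data), and 38 to 2575 with 1 library left out, the highest without glucagon lower band replicate 2. Without that library 1824 genes also passed between bands, against 0 without any other 1. Irs2 passed in 6 of 16 settings (adjusted p from 0.00190 to 0.266), Grb10 in 2 (0.00719 to 0.515) and Foxo1 in 1 (0.00176 to 0.747). Pik3r1 turned to 0.0706 with median centring and 0.13 in the upper band, where Pik3ca turned to 0.26; with 1 library left out Pik3ca ran from −0.52 to 0.17, Rheb from −0.0837 to 0.385, Pdpk1 from −0.17 to 0.34 and Pik3r1 from −0.32 to 0.13. The replicate block changed no other call of the 10 genes; its permutation test cannot go below p = 0.125, where Pik3r1 and Grb10 stood. The cause of these changes was not tested.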
